A study of Mus musculus with 48 samples.

Results

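Pre-red pulp macrophages (pre-RPMs) are cells of the spleen that stand between monocytes and red pulp macrophages (RPMs), and 66 of the 54735 genes counted passed a set of thresholds for a peak in them in wild-type (WT) mice. A gene was taken as a member where its mean level in WT pre-RPMs was at least 5 counts per 1000000 counts (CPM), at least 2 times the WT monocyte mean, and at least 1.5 times the WT RPM mean. CPM was the count divided by the library total without *Gm42418*, which holds ribosomal RNA sequence, and without mitochondrial genes. Immunoglobulin genes and 11 genes tied to eosinophils or neutrophils (*Ccr3*, *Siglecf*, *Epx*, *Prg2*, *Prg3*, *Ear1*, *Ear2*, *Ear6*, *Il5ra*, *Alox15*, and *Retnlg*) were left out by name. The WT values of the members therefore describe how they were chosen and were not tested. The tests below use the libraries labelled IL1RL1-/-, which the rule did not use.

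RNA was sequenced from monocytes (sorted as Ly6Glo CD11bhi F4/80-), pre-RPMs (Ly6Glo CD11bhi F4/80lo), and RPMs (Ly6Glo CD11blo/- F4/80hi) of the spleens of male 10-week-old Balb/c mice. The mice were 4 WT animals and 4 labelled IL1RL1-/-, a label for deletion of the IL-33 receptor gene in the whole mouse, and by the mouse numbers in the labels each mouse gave 1 library of each cell type, 24 libraries in all. The labels name no treatment. *Il1rl1*, the gene named in the mutant label, went against that label in monocytes (51 to 73 counts per library, against 12 to 28 in WT) and in pre-RPMs (42 to 76, against 13 to 24), and only in RPMs was it lower (1 to 7, against 5 to 13). Libraries are therefore called by their label, and no direction between genotypes below is one between cells shown to have and to lack the receptor. Libraries held 3562367 to 6559454 counts, so that 3 counts correspond to 0.79 to 1.31 CPM, and values near that level cannot be told from 0.

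RPMs clear aged red blood cells and return their iron to the circulation, a program that depends on the transcription factor SPIC. Blood monocytes can give rise to them through a stage of CD11bhi F4/80lo cells, and IL-33 is an alarmin that signals through the receptor encoded by *Il1rl1*. The members fall into interferon-stimulated antiviral genes, receptors and other membrane proteins, secreted and extracellular proteins, genes of signalling, membrane traffic, and the cytoskeleton, metabolic and RNA-editing genes, transcription factors, and genes that do not encode protein, groups that were put together after the members were known.

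Of the 66 members, 55 were annotated as protein coding. The others were 5 lincRNAs, 3 gene models of the class to be experimentally tested, 1 antisense RNA, 1 processed transcript, and *Mx2*, annotated as a polymorphic pseudogene. Per kilobase of exon, the members with the highest WT pre-RPM level were *Ifi27l2a* (215 CPM per kb), an interferon-induced gene, and *Plac8* (215 CPM per kb), which encodes a small cysteine-rich protein. They were followed by *Wfdc17* (72.4), *Ms4a6d* (65.8), *Apobec1* (56), *Arhgef37* (54.4), and *Plekhh2* (54.2 CPM per kb), and the lowest member stood at 1.16 CPM per kb. The WT pre-RPM mean was a median of 2.38 times the monocyte mean and 7.16 times the RPM mean, and in 51 of the 66 members the RPM mean was below the monocyte mean. Most members thus had their lowest level in RPMs, and 9 had no WT RPM library above 3 counts. In 42 members, all 4 WT pre-RPM libraries were above all monocyte and all RPM libraries. The rule chose members on the means of these libraries, so this count is in part fixed by the choice and is not a result.

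Members just inside the thresholds were close to genes just outside. For the level, *Gata1* (5.13 CPM) and *Mkx* (5.14) were members, whereas *Cdk5r1* (4.96) and *Gm4117* (4.85) were not. For the ratio to monocytes, *Lyz1* (2.001) and *Sirpb1a* (2.01) were inside, and *Tmem176b* (1.9996) and *Plcb1* (1.998) were outside. For the ratio to RPMs, *Gata1* (1.52) and *Cyp27a1* (1.61) were inside, and *Gm42633* (1.49) and *Gm1673* (1.46) were outside. The list itself depended on the WT monocyte libraries. With each WT monocyte library left out in turn, 56, 37, 153, and 103 genes met the rule without the library of mouse 1, 2, 3, and 4. Of these genes, 45, 30, 65, and 66 were members. With the library sizes scaled by TMM over all libraries, 139 genes met it, 54 of them members.

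Monocyte libraries also differed in marker RNA of other cell types. For 8 NK cell markers together, WT monocytes of mice 1 to 4 held 3669, 3503, 999.8, and 1982 CPM, and monocytes labelled IL1RL1-/- held 2826, 2071, 822, and 1453 CPM, against 130.2 to 225 and 26.3 to 96.9 in pre-RPMs. The sum of 20 neutrophil markers was 1747 to 6141 and 2142 to 4101 in monocytes, against 681 to 843 and 712 to 1119 in pre-RPMs. Markers of 5 plasma cell genes were also higher in monocytes (744 to 3146 against 252 to 827 in libraries labelled IL1RL1-/-). The sum of 9 classical monocyte markers was lower in the monocyte libraries of mice 1 and 2, which held the most NK cell RNA, at 1812, 2593, 4506, and 3699 in libraries labelled IL1RL1-/-, where pre-RPMs held 3806 to 4398. Member RNA was likewise lowest in mice 1 and 2. Its sum was 819, 587, 2056, and 1694 CPM in WT monocytes and 739.9, 1306, 2017, and 1953 CPM in those labelled IL1RL1-/-. No member was on the NK cell, neutrophil, monocyte, RPM, plasma cell, or erythroid lists, and 1 member, *Gata1*, was on a list of eosinophil genes. The part of the other cells in a pre-RPM level above the monocyte level was not tested. In bulk RNA, fewer cells of a type and less RNA per cell cannot be told apart, and the main counts are also given below with only the monocyte libraries of mice 3 and 4, a choice made after the data were seen.

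In pre-RPMs the sum of the members was 3028, 2892, 2576, and 4064 CPM in WT mice 1 to 4 and 2732, 3729.7, 3993, and 3194 CPM in the mice labelled IL1RL1-/-. RPMs held 484 to 663 CPM and 444 to 634 CPM. Every pre-RPM library was above every monocyte and RPM library of the same genotype. Among WT pre-RPMs, the library of mouse 3 was lowest, and it also held the most erythroid marker RNA (905 CPM, against 16.7 to 159.6 in the other 3 libraries) and the most RPM marker RNA (412 CPM, against 132 to 237). It held the least RNA of the eosinophil genes left out by name. These 10 genes summed to 244, 216, 109, and 180.3 CPM in WT pre-RPMs of mice 1 to 4, against 43.6 to 86.1 CPM in monocytes and 492 to 619 CPM in RPMs. Of the 66 members, 34 were lowest in mouse 3, *Mylk*, *Reps2*, *Inpp5j*, *Gata1*, and *Mkx* among them. In libraries labelled IL1RL1-/-, that sum was 135, 136, 158, and 224 CPM in pre-RPMs, 29 to 80.5 CPM in monocytes, and 518 to 675 CPM in RPMs. A list of 10 other eosinophil genes summed to 392.4 to 465.3, 256.2 to 394.4, and 527.3 to 808.3 CPM in WT pre-RPMs, monocytes, and RPMs, and to 380.2 to 506.3, 205.6 to 330.4, and 659.5 to 893.3 CPM in those labelled IL1RL1-/-. Of the 10 genes left out by name, *Ccr3* and *Ear2* were highest in WT RPMs. Their means were 502 and 36.2 CPM there, against 55.4 and 29.4 CPM in WT pre-RPMs. Each of the other genes left out had its highest WT mean in pre-RPMs. *Alox15*, *Il5ra*, *Siglecf*, and *Ear6* had 59.7, 7.96, 7.83, and 6.73 CPM in WT pre-RPMs. WT monocytes held 12.7, 1.62, 1.83, and 0.815 CPM, and WT RPMs 2.20, 0.619, 1.70, and 0.432 CPM. *Epx* and *Prg3* were low, with 0.893 and 1.17 CPM in WT pre-RPMs. The part of erythroid, RPM, and eosinophil RNA in the member levels was not tested. The plot of sums by library shows both the members and the marker lists.

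**Figure D1:**
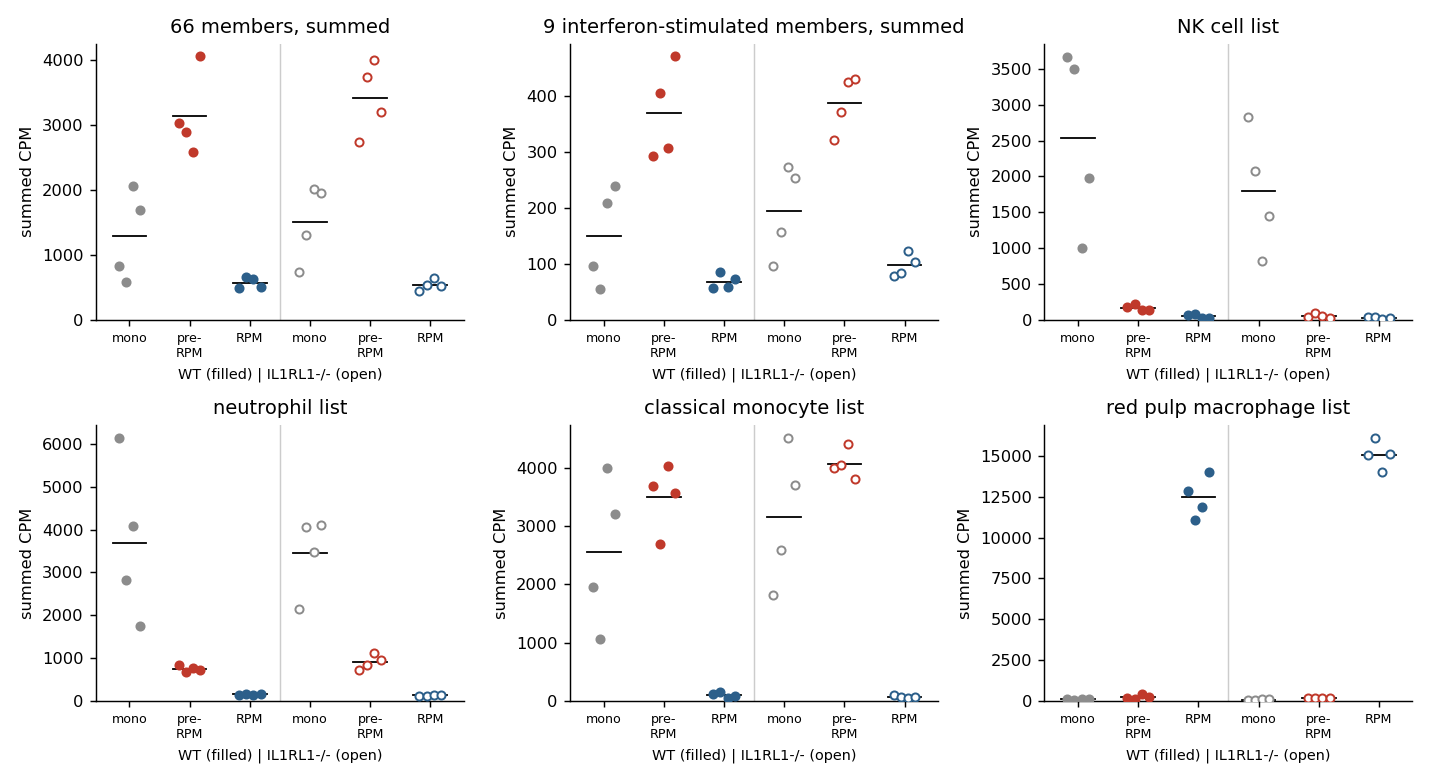
Summed CPM of all members, of the interferon-stimulated members, and of the NK cell, neutrophil, classical monocyte, and RPM marker lists in each library (vertical axes, linear from 0), by cell type and genotype (horizontal axis). Points are libraries, filled for WT and open for IL1RL1-/-, and bars are means of 4. The members are highest in pre-RPMs of both genotypes, and among monocytes they are lower in the 2 libraries of each genotype with the highest NK cell sums.

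In the libraries labelled IL1RL1-/-, 41 of the 66 members (62.1%) met the same rule. Of all 9646 genes at a mean of at least 5 CPM in those pre-RPMs, 109 (1.13%) met it. The pre-RPM mean was above both other means in 63 members, and it was a median of 2.13 times the monocyte mean and 6.84 times the RPM mean. Of the 25 members that did not meet the rule, 22 were under 2 times the monocyte mean, 7 were under 5 CPM, and 3 were under 1.5 times the RPM mean. All 4 pre-RPM libraries were above all monocyte libraries in 43 members (8.43% of the 9646 genes), above all RPM libraries in 56 (22.1%), and above both in 40 (3.99%). The number of members that met the rule moved with the monocyte libraries. It was 21, 32, 48, and 47 without the monocyte library of mouse 1, 2, 3, and 4 (0.705%, 0.902%, 1.71%, and 1.73% of the 9646 genes), and 12 with only those of mice 3 and 4 (0.384%).

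**Figure D2:**
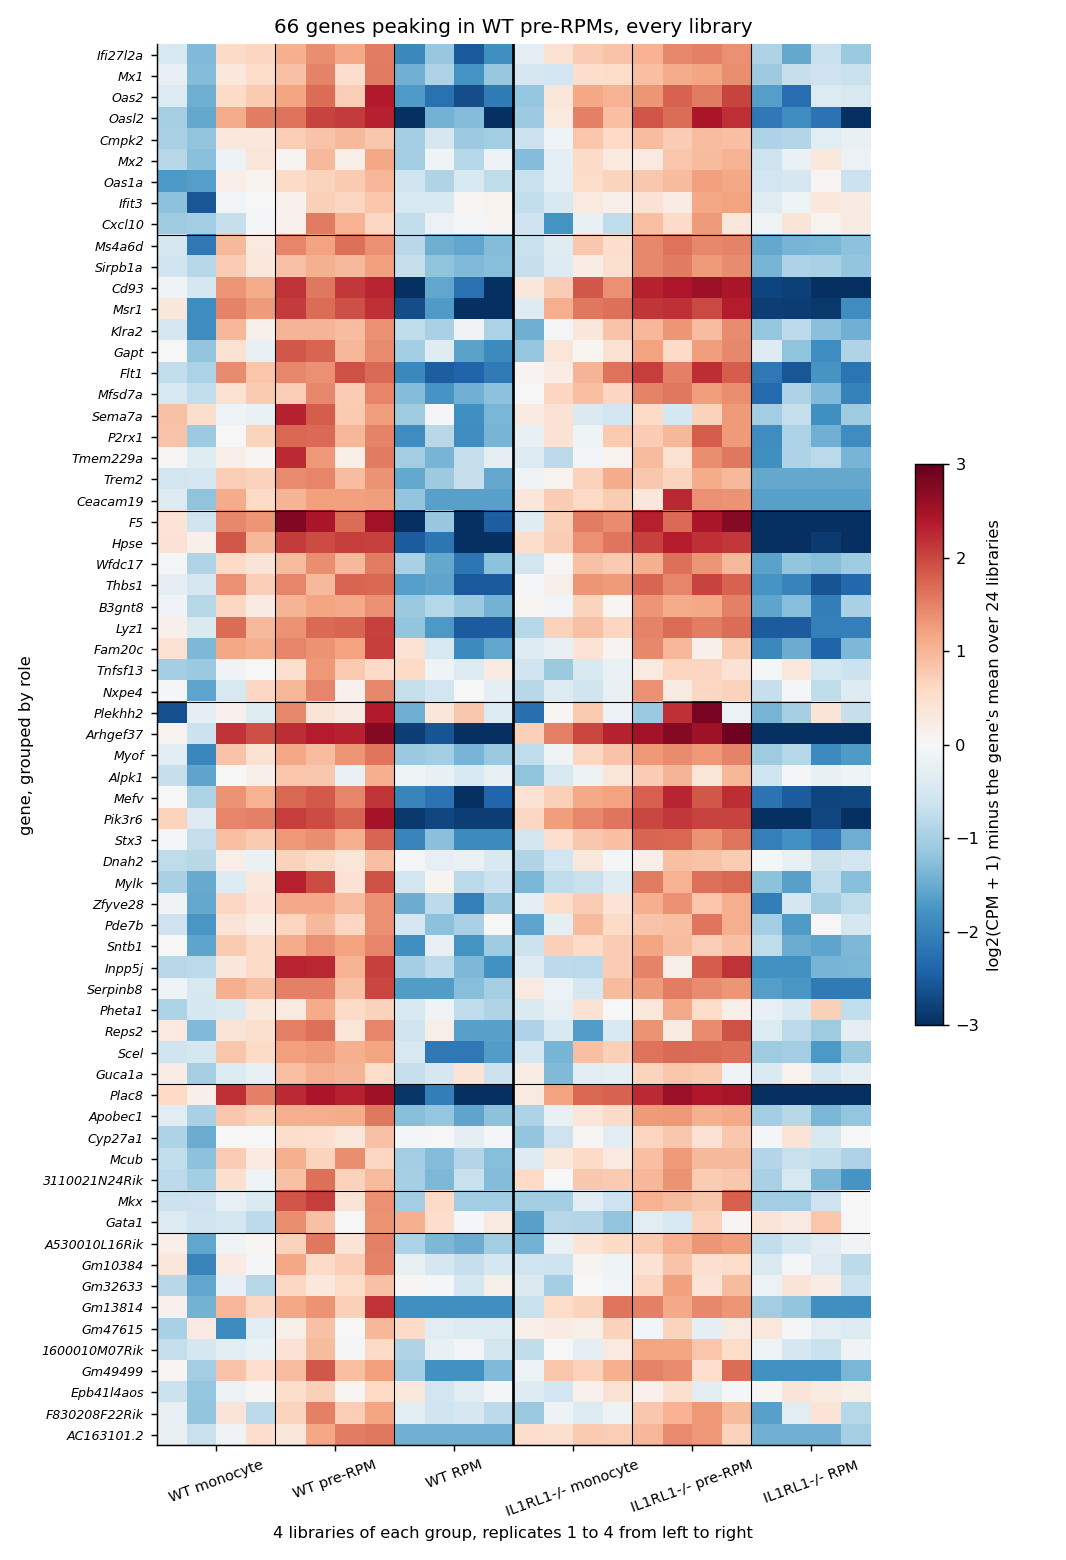
Heat map of the 66 members (rows, grouped by role and ordered by WT pre-RPM level) in 24 libraries (columns, 4 per group). Color is log2(CPM + 1) minus the mean of the gene over all libraries, from −3 (blue) to 3 (red). Pre-RPM columns are red in both genotypes, RPM columns are mostly blue, and monocyte columns of mice 1 and 2 are bluer than those of mice 3 and 4.

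**Figure D3:**
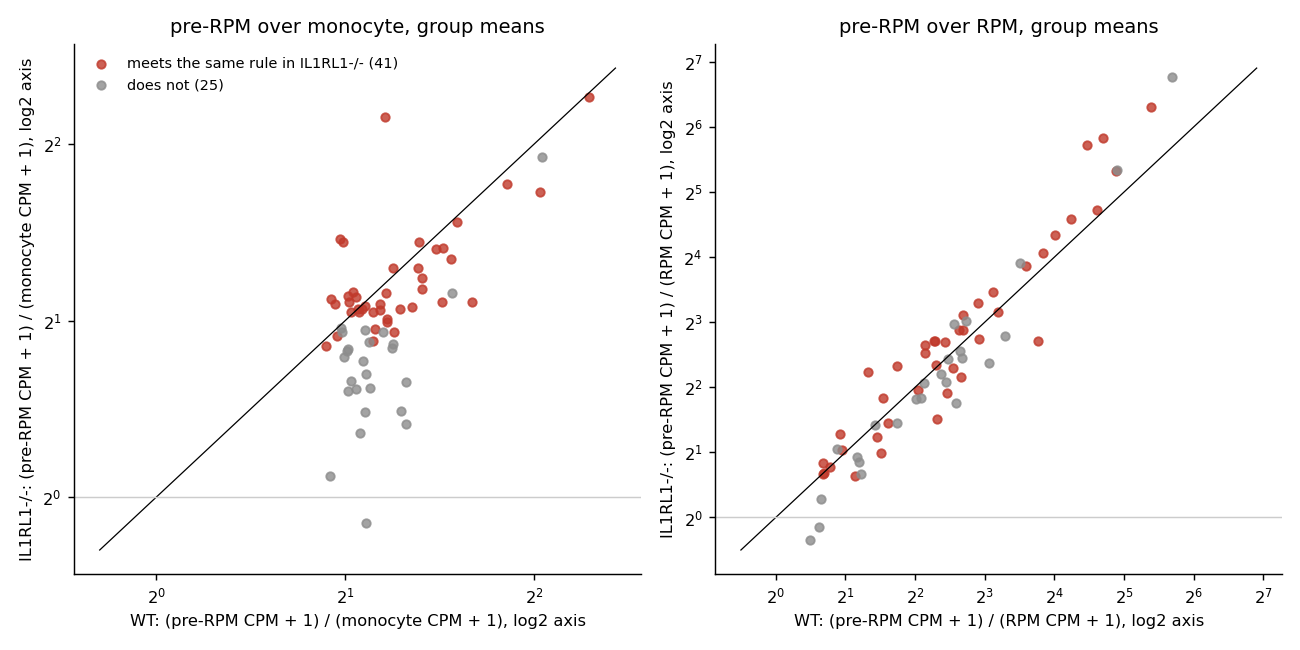
Ratio of group mean CPM, with 1 added to each mean, of pre-RPMs to monocytes (left) and to RPMs (right) for each member, in WT (horizontal axes) and in libraries labelled IL1RL1-/- (vertical axes), on log2 axes. Red points are the 41 members that meet the rule in the libraries labelled IL1RL1-/-, gray points the other 25, and the line marks equal ratios. Members spread little along the WT monocyte ratio, which the rule bounds from below, and lie near the line for RPMs.

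Pre-RPMs were then compared with monocytes and with RPMs in the libraries labelled IL1RL1-/-, with edgeR's quasi-likelihood test over all genes, and a call needed a change of more than 1 on the log2 scale together with an adjusted p under 0.01. Against monocytes, 63 members had enough counts to be tested and 14 were called higher, where 0.974% of all 11196 genes were. None was called lower. At an adjusted p under 0.05 with no fold threshold, 48 members were higher (8.24% of all genes), and 25 members with a log2 fold change above 1 had an adjusted p from 0.01 to 0.05. With the mouse as a block, since the 3 libraries of 1 mouse share their number in the labels, 36 members were called (1.7% of all genes), including all 14. Against RPMs, 60 members were tested and 53 were called higher (11.5% of 11437 genes), and the block left that number at 53. Both tests were passed by 12 members (0.486% of 10692 genes), or by 31 with the block (0.851%). The median log2 fold change of the tested members was 1.11 against monocytes and 2.85 against RPMs, where it was −0.00 and 0.00 over all genes. With *Trem2*, which had no count in those RPMs, set to its bound, the latter median was 2.76.

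Some tested members passed the filter on low counts only because they were high in pre-RPMs, and these had to differ. Against monocytes, 36 of the 63 reached the filter in all 4 monocyte libraries, and 9 of these were called (0.837% of 9917 such genes). The other 5 of the 14 were *Mylk*, *Reps2*, and *F830208F22Rik*, which reached it in no monocyte library, and *Gm32633* and *Tnfsf13*, which reached it in some. With the mouse as a block, 24 of the members that reached it in all 4 monocyte libraries were called (1.46% of such genes). The other members called with the block did not reach it in all 4. Against RPMs, 21 of the 60 reached it in all 4 RPM libraries, and 17 of these were called (7.41% of 10099 such genes). No RPM library reached it for 25 of the 53 called, which include *Mylk*, *Reps2*, *F830208F22Rik*, *Arhgef37*, *Cd93*, *Hpse*, *Oasl2*, *F5*, *Thbs1*, *Sntb1*, *Lyz1*, *Tmem229a*, and *Trem2*, so that their folds over RPMs rest on few counts. Of the 12 members that passed both tests, only *Apobec1*, *Ms4a6d*, *Sirpb1a*, and *Stx3* reached it in all 4 monocyte and all 4 RPM libraries. The members that passed both with the block were not split in this way. The calls against monocytes also depended on single libraries. They numbered 8, 4, 30, and 22 without the monocyte library of mouse 1, 2, 3, and 4, where 0.535%, 0.289%, 2.28%, and 1.32% of all genes were called. Without the pre-RPM library of mouse 1, 2, 3, and 4 they numbered 3, 8, 3, and 3, where 0.373%, 0.468%, 0.389%, and 0.325% of all genes were called. Of the 14, *Mylk*, *Mefv*, and *Sirpb1a* were called in all 8 of these fits, and each of the others in 1 to 5. With only the monocytes of mice 3 and 4, 3 of 65 members were called (0.231% of 11672 genes), which were *Sirpb1a* and, tested through their pre-RPM level, *Mylk* and *Reps2*. In that fit 62 of the 65 members had a positive log2 fold change, with a median of 0.71, where it was 0.00 over all genes. The median was 0.10 for the classical monocyte list and 0.23 for a list of 12 nonclassical monocyte genes. It was −2.28 for the neutrophil list and −4.47 for the NK cell list. These monocyte libraries held 822 and 1453 CPM of NK cell markers, and the part of other cells in the fold changes was not tested. Against RPMs, the number of called members stayed between 50 and 57 whichever library was left out (11.2% to 12% of genes).

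**Figure D4:**
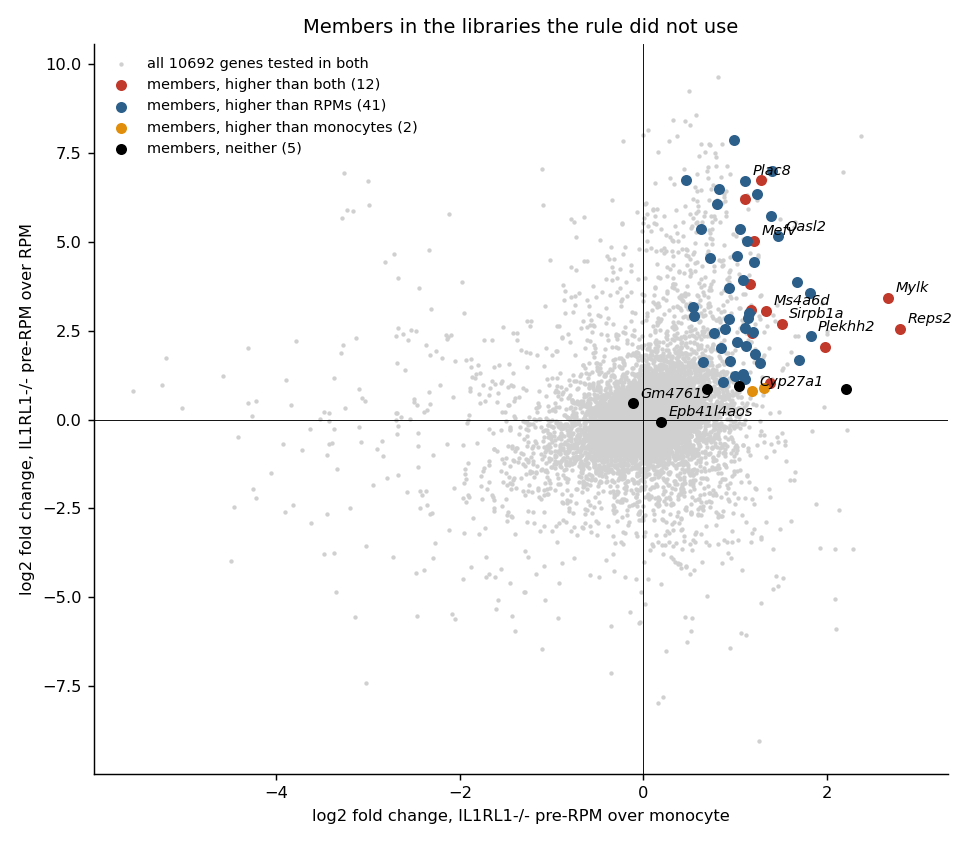
Log2 fold change of pre-RPMs over monocytes (horizontal axis) and over RPMs (vertical axis) in libraries labelled IL1RL1-/-, for 10692 genes (gray) and the 60 members tested in both (colored by the tests they passed). The members lie to the right of and above the bulk of genes, 12 of them past both thresholds, and *Gm47615* and *Epb41l4aos* lie nearest to 0 on the horizontal axis.

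Among genes of signalling, membrane traffic, and the cytoskeleton, 18 members in all, 17 were tested against monocytes and 4 were called, and 15 of 16 tested were called against RPMs. Over all genes, the shares called were 0.974% and 11.5%. *Mylk*, which encodes the myosin light chain kinase that drives contraction, lies on chromosome 16 from 34745210 to 35002420 on the plus strand of GRCm38. In mice 1 to 4 labelled IL1RL1-/-, its level was 16.1, 11, 17.5, and 18.3 CPM in pre-RPMs, 1.26, 2.46, 2.66, and 3.51 CPM in monocytes, and 1.5, 0.878, 2.43, and 1.41 CPM in RPMs, and no pre-RPM library overlapped the other cell types. It had 3 to 10 counts per monocyte library and 3 to 7 per RPM library. *Mylk* thus passed the filter of both tests only through the pre-RPMs, so that it had to differ. Its log2 fold change was 2.67 (SE 0.31, adjusted p = 0.000203) over monocytes and 3.44 (SE 0.34, adjusted p = 5.17e-07) over RPMs, and it was called against monocytes whichever library was left out. With only the monocytes of mice 3 and 4, it was 2.34 (adjusted p = 0.000583). WT pre-RPMs held 28.5, 21.8, 6.92, and 21.1 CPM, with mouse 3 close to the highest monocyte library at 6.32 CPM. *Mylk* was the only one of 16 tested genes on a list of contractile and cytoskeletal genes that was called higher than in monocytes (0.974% of all genes).

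*Reps2*, whose product acts in endocytosis, lies on chromosome X from 162411954 to 162643649 on the minus strand. Its level was 9.91, 4.18, 10.5, and 15.2 CPM in pre-RPMs labelled IL1RL1-/-, 1.26, 2.11, 0.333, and 2.11 CPM in monocytes, and 2.24, 1.46, 1.04, and 2.47 CPM in RPMs, and mouse 2 was the lowest of the pre-RPMs. The log2 fold change was 2.79 (SE 0.50, adjusted p = 0.00324) over monocytes and 2.56 (SE 0.44, adjusted p = 0.000136) over RPMs, in tests it likewise entered only through the pre-RPMs, with 1 to 6 counts per monocyte library. *Mefv*, which encodes the inflammasome sensor pyrin, lies on chromosome 16 from 3707218 to 3718097 on the minus strand. It stood at 87, 123, 91, and 116 CPM in pre-RPMs, 33.2, 40.4, 54.3, and 56.9 CPM in monocytes, and 4.49, 3.51, 2.77, and 2.82 CPM in RPMs. *Mefv* was 1.21 (SE 0.17, adjusted p = 0.000592) higher on the log2 scale than in monocytes and 5.04 (SE 0.15, adjusted p = 6.77e-13) higher than in RPMs, and its call against monocytes held whichever library was left out. With only the monocytes of mice 3 and 4, its difference was 0.91 (adjusted p = 0.000176) and thus under the fold threshold. *Stx3*, a syntaxin of membrane fusion, was called in both tests, at 1.16 (SE 0.24, adjusted p = 0.00667) over monocytes and 3.81 (SE 0.16, adjusted p = 2.64e-11) over RPMs.

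Promoter windows of RefSeq, from 250 bases before to 50 bases after a start on GRCm38.p6, were found for 45 of the 66 members. Windows are shown for the 4 protein-coding members with a window that were called in both tests and had the largest value of the smaller of their 2 log2 fold changes, 2 of which, *Mylk* and *Reps2*, entered those tests only through the pre-RPMs. The *Mylk* start lies inside the annotated gene, which begins upstream of it. They are chr16:34784700-34784999 on the plus strand for *Mylk*, chrX:162643609-162643908 on the minus strand for *Reps2* (the upstream of its 2 windows), chr3:15426378-15426677 on the minus strand for *Sirpb1a*, and chr16:3718075-3718374 on the minus strand for *Mefv*. Capitals mark matches, on either strand, to the motifs searched, which were AGATAA for factors of the GATA family, TGATAA for the same family, GAGGAAG for the factor PU.1, TGACTCA for the AP-1 complex, TGTGGT for RUNX factors, TATAAA for the TATA box, GGGCGG for the GC box, and the core of the interferon-stimulated response element (ISRE), which was added after the members were known and is GAAA repeated after a gap of any 2 bases.
Mylk: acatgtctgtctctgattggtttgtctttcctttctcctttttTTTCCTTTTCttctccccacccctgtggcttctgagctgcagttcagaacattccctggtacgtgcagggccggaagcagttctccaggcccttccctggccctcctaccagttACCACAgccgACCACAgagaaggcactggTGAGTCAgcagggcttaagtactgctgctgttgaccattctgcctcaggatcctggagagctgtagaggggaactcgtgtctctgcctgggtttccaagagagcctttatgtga
Reps2: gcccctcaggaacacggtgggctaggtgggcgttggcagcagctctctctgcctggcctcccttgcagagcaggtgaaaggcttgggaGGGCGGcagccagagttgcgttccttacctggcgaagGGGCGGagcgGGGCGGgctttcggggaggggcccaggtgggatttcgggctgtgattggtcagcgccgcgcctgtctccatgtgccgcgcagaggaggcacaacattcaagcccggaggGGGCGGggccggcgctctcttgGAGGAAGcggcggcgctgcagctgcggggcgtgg
Sirpb1a: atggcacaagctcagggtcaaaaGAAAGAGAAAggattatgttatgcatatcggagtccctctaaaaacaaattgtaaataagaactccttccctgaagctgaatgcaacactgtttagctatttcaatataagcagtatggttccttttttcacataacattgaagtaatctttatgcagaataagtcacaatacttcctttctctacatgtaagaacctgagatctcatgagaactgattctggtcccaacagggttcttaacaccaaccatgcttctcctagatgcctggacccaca
Mefv: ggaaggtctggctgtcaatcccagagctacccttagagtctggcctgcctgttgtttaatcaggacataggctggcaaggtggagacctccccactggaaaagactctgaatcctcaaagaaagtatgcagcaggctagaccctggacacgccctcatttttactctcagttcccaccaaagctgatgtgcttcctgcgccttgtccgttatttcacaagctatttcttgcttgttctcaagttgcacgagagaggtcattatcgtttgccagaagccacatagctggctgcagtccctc

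The *Mylk* window held TGAGTCA, which is TGACTCA on the other strand, 64 bases before the start, with 2 matches to TGTGGT and an ISRE core on the other strand, and the *Reps2* window held 4 GC boxes and GAGGAAG. No motif of the list was in the *Mefv* window. TGACTCA was in the windows of 6 of the 45 members (13.3%, against 5.95% of 27025 genes), and the ISRE core also in 6 (13.3%, against 3.99%), which were *Ifit3*, *Cxcl10*, *Oas1a*, *Mylk*, *Sirpb1a*, and *1600010M07Rik*. The other shares were 17.8% of members and 15.4% of genes for GAGGAAG, 20% and 18.9% for TGTGGT, 20% and 15.7% for TATAAA, 31.1% and 38.2% for GGGCGG, 6.67% and 12.7% for AGATAA, and 11.1% and 10.4% for TGATAA. A match describes the letters of a window and not binding.

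Other members of this group varied more. *Plekhh2*, which encodes a protein with pleckstrin homology and FERM domains, was the most abundant member by CPM and the most uneven. Its level was 453, 218, 199, and 869 CPM in WT pre-RPMs and 76.3, 772, 1214, and 148 CPM in those labelled IL1RL1-/-. Monocytes labelled IL1RL1-/- held 34, 173, 288, and 148 CPM and RPMs 63.2, 83.7, 218, and 104 CPM, so that the groups overlapped and mouse 1 was the lowest of each cell type. The log2 fold change over monocytes was 1.82 (SE 0.77, adjusted p = 0.132) and did not pass, while with the mouse as a block it did (adjusted p = 0.00451). *Inpp5j*, an inositol phosphatase gene, stood at 16.2, 15.9, 6.22, and 13.5 CPM in WT pre-RPMs and 8.81, 2.98, 11.4, and 14.9 CPM in those labelled IL1RL1-/-, where monocytes held 1.00 to 4.92 CPM and RPMs at most 0.353 CPM. Its adjusted p against monocytes was 0.0223, or 0.0015 with the block, in tests where it reached the count filter in only 1 monocyte library. *Arhgef37*, a guanine nucleotide exchange factor gene, was high in monocytes as well (adjusted p = 0.0211, or 0.00184 with the block). It had 52.5, 92.4, 131, and 162 CPM there, 188, 221, 191, and 247 CPM in pre-RPMs and at most 1.41 CPM in RPMs, where it had 2 to 4 counts per library. *Sntb1*, a syntrophin gene, differed from RPMs (2.9, SE 0.32, adjusted p = 1.40e-06) and stood at 10.8 CPM against 7.47 CPM in monocytes (adjusted p = 0.229).

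Of the 13 receptors and other membrane proteins, 3 were called against monocytes (7 with the block), and all 11 that were tested were called against RPMs. Over all genes, the shares called were 0.974% (1.7% with the block) and 11.5%. *Sirpb1a*, of the signal-regulatory proteins that signal activation in myeloid cells, lies on chromosome 3 from 15371653 to 15426520 on the minus strand. Its level in mice 1 to 4 labelled IL1RL1-/- was 109.7, 119.6, 98, and 108 CPM in pre-RPMs, 24.3, 30.2, 46.6, and 55.9 CPM in monocytes, and 14.6, 20.8, 19.8, and 16.9 CPM in RPMs. The groups were separate, with log2 fold changes of 1.5 (SE 0.21, adjusted p = 0.000556) over monocytes and 2.7 (SE 0.11, adjusted p = 2.17e-11) over RPMs. With only the monocytes of mice 3 and 4, the former was 1.1 (adjusted p = 9.67e-06). In WT, pre-RPMs ranged from 74.2 to 95.1 CPM and monocytes from 21.6 to 68.3 CPM. Its near copy *Sirpb1c* was also called higher than in monocytes, and reads that fit both genes could be dropped or assigned to either, which was not tested.

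*Cd93*, a C-type lectin-like receptor of monocytes and endothelial cells, stood at 95, 103, 114, and 105 CPM in pre-RPMs, 23.5, 31.6, 69.6, and 49.2 CPM in monocytes, and at most 1.87 CPM in RPMs labelled IL1RL1-/-. It was called over monocytes (1.28, SE 0.27, adjusted p = 0.00762) and over RPMs (6.74, SE 0.27, adjusted p = 1.34e-11). *Ms4a6d*, a gene of the membrane-spanning 4-domain family, had 115, 131, 114, and 119 CPM in pre-RPMs, 26, 32.3, 73.9, and 60.4 CPM in monocytes, and 13.8, 15.2, 15.6, and 17.3 CPM in RPMs. Both differences passed, at 1.34 (SE 0.26, adjusted p = 0.00556) and 3.06 (SE 0.11, adjusted p = 2.68e-12). Neither gene was called with only the monocytes of mice 3 and 4, where the log2 fold changes were 0.80 and 0.83. Near copies of *Ms4a6d*, *Ms4a6b* and *Ms4a6c*, had 152, 94.8, and 12.3 and 299.5, 169, and 16.1 CPM in the same order of cell types, and reads shared among them leave each count uncertain.

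*Klra2*, a lectin-like receptor of the Ly49 family, had pre-RPM levels of 37.1, 46.5, 35, and 49.8 CPM, all above monocytes (5.88 to 33.4 CPM) and RPMs (at most 9.95 CPM), with an adjusted p of 0.0349 against monocytes (0.0068 with the block). *Gapt*, an adaptor that binds GRB2, and *Tmem229a*, a transmembrane protein gene, were among the members with the largest WT ratios. *Gapt* stood at 35.4 CPM in WT pre-RPMs against 10.4 CPM in monocytes, and at 26.9 against 12 CPM in libraries labelled IL1RL1-/- (adjusted p = 0.0224). *Tmem229a* stood at 9.07 against 2.51 CPM in WT and at 6.91 against 1.97 CPM in libraries labelled IL1RL1-/- (adjusted p = 0.0107, or 0.00162 with the block). It had 3 to 8 counts in those monocyte libraries and passed the filter only through the pre-RPMs, so that it had to differ. *Trem2*, a receptor that senses lipids, was low, with 4.04, 3.58, 5.25, and 4.64 CPM in pre-RPMs and 1.68, 2.11, 3.66, and 5.27 CPM in monocytes labelled IL1RL1-/-, which overlapped (adjusted p = 0.447). *Trem2* had no count in any of those RPM libraries, so that it was at least 4.27-fold higher in pre-RPMs, taking 3 counts per RPM library as the floor.

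On a list of 40 paired receptors and lectins, 6 of 32 tested genes were called higher in pre-RPMs than in monocytes, and none lower. Of all genes, 0.974% were called higher and 3.88% lower. The 6 called higher were *Sirpb1a*, *Sirpb1c*, *Siglec1*, *Cd300a*, *Pirb*, and *Fcgr2b*, of which only *Sirpb1a* is a member. The median log2 fold change was 0.95 over the 32 genes, whereas it was −0.00 over all genes. Against RPMs, 12 of 32 were called higher and 7 lower (11.5% and 14.5% of all genes).

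**Figure D5:**
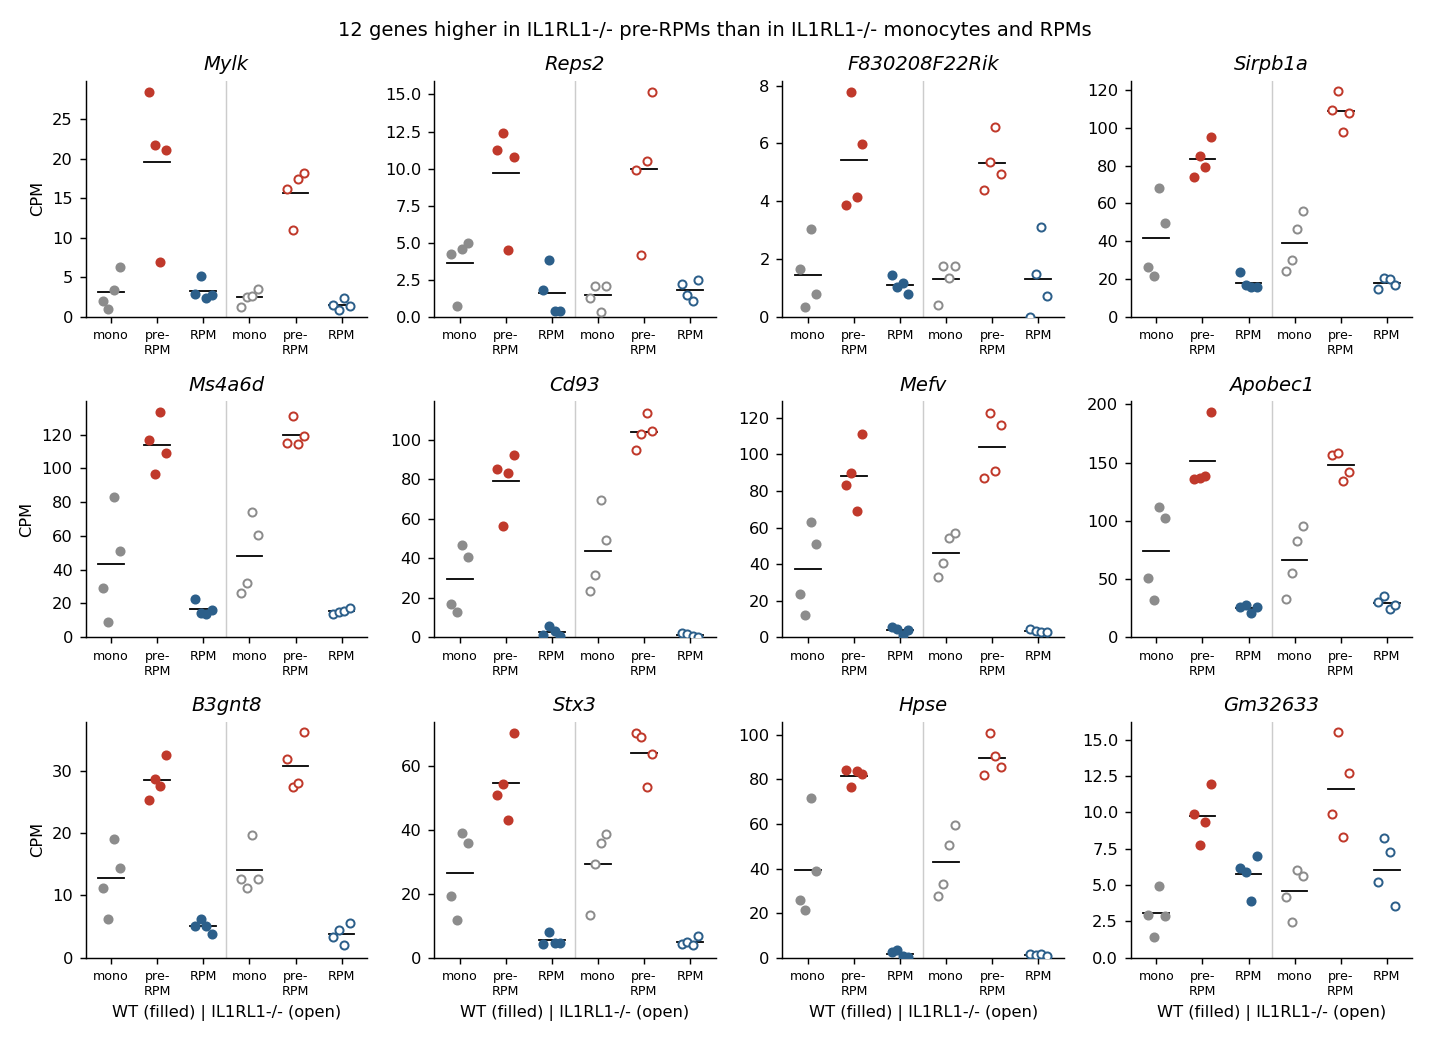
CPM in each library (vertical axes, linear from 0) of the 12 members called higher in pre-RPMs than in both other cell types in libraries labelled IL1RL1-/-, by cell type and genotype (horizontal axis). Points are libraries, filled for WT and open for IL1RL1-/-, and bars are means of 4. In libraries labelled IL1RL1-/-, all pre-RPM points lie above all monocyte and RPM points in each of the 12 panels. *Mylk*, *Reps2*, and *F830208F22Rik* entered both tests only through the pre-RPMs.

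Of 9 members that encode secreted or extracellular proteins or their modifying enzymes, 3 were called against monocytes (6 with the block) and 8 against RPMs. Over all genes, the shares called were 0.974% (1.7% with the block) and 11.5%. *Hpse*, which encodes heparanase, an enzyme that cuts heparan sulfate, lies on chromosome 5 from 100679484 to 100719716 on the minus strand. It stood at 81.8, 101, 90.6, and 85.4 CPM in pre-RPMs, 27.7, 33, 50.6, and 59.7 CPM in monocytes, and 1.5, 1.17, 1.73, and 0.705 CPM in RPMs labelled IL1RL1-/-. The log2 fold change was 1.1 (SE 0.20, adjusted p = 0.0037) over monocytes and 6.21 (SE 0.18, adjusted p = 4.58e-13) over RPMs. *Hpse* was called against monocytes in 2 of the 8 fits with a library left out. With only the monocytes of mice 3 and 4, its log2 fold change was 0.71, under the threshold. *B3gnt8*, a glycosyltransferase gene, had 31.9, 27.4, 28, and 36.2 CPM in pre-RPMs and 12.6, 11.2, 19.6, and 12.7 CPM in monocytes, and both differences passed, at 1.17 (SE 0.21, adjusted p = 0.00303) over monocytes and 3.09 (SE 0.23, adjusted p = 1.35e-08) over RPMs. *Tnfsf13*, which encodes the B cell survival factor APRIL and was chosen after its values were seen, was called over monocytes (1.32, SE 0.29, adjusted p = 0.00981), while over RPMs it was 0.89 (SE 0.28, adjusted p = 0.0154).

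*F5*, which encodes coagulation factor V, had 140.3, 111, 64.7, and 116 CPM in WT pre-RPMs and 103, 65.9, 111, and 135 CPM in those labelled IL1RL1-/-, against 15.1, 33, 58.3, and 54.1 CPM in monocytes and at most 1.06 CPM in RPMs. The pre-RPM libraries were all above the others, with an adjusted p of 0.0156 against monocytes (0.00141 with the block) and of 1.37e-10 against RPMs. *Thbs1*, which encodes the matrix glycoprotein thrombospondin 1, stood at 33.1 to 49 CPM in pre-RPMs, 10.9 to 29.6 CPM in monocytes, and 1.04 to 2.62 CPM in RPMs (adjusted p = 0.0371 against monocytes, or 0.00303 with the block, and 7.32e-10 against RPMs). *Wfdc17*, a small secreted protein of the WAP family, stood at 31.9 to 52.2, 10.5 to 30.0, and 4.49 to 7.05 CPM in the same order. *Lyz1*, a lysozyme gene, had 14.7 to 17 CPM in pre-RPMs and 2.1 to 9.32 CPM in monocytes (adjusted p = 0.0158, or 0.00684 with the block). Its near copy *Lyz2* was far higher, with means of 6074 CPM in pre-RPMs, 3645 CPM in monocytes, and 36.1 CPM in RPMs labelled IL1RL1-/-, and reads that fit both genes could be dropped or assigned to either, which was not tested.

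Among 5 metabolic, RNA-editing, and other protein-coding members, *Apobec1* and *Cyp27a1* were called against monocytes, and 4 were called against RPMs. Over all genes, the shares called were 0.974% and 11.5%. *Apobec1*, which encodes the cytidine deaminase that edits *Apob* mRNA, lies on chromosome 6 from 122577792 to 122602444 on the minus strand. Its level was 157, 158, 134, and 142 CPM in pre-RPMs, 33.2, 54.8, 82.6, and 95.2 CPM in monocytes, and 30.3, 35.4, 23.9, and 27.9 CPM in RPMs labelled IL1RL1-/-, with log2 fold changes of 1.19 (SE 0.24, adjusted p = 0.00683) and 2.44 (SE 0.11, adjusted p = 3.10e-11). *Apobec1* was called against monocytes in 2 of the 8 fits with a library left out. With only the monocytes of mice 3 and 4, its log2 fold change was 0.74, under the threshold. *Cyp27a1*, which encodes sterol 27-hydroxylase, was also expressed in RPMs, with 69.4, 77.3, 60.0, and 77.4 CPM in pre-RPMs, 18.9, 28.1, 45.3, and 35.1 CPM in monocytes, and 41.9, 58.8, 31.9, and 44.1 CPM in RPMs. It passed against monocytes (1.18, SE 0.21, adjusted p = 0.00326), and against RPMs it had an adjusted p of 6.62e-05 at a log2 fold change of 0.80, under the fold threshold. *Plac8* had 307, 388, 341, and 361 CPM in pre-RPMs, 77.6, 149.7, 216, and 222 CPM in monocytes, and 1.76 to 5.85 CPM in RPMs. It was thus above every monocyte library, with a log2 fold change of 1.11 (SE 0.26, adjusted p = 0.0125) over monocytes, called with the block (adjusted p = 0.00109), and 6.73 (SE 0.19, adjusted p = 3.08e-13) over RPMs. *Mcub*, which encodes a subunit of the mitochondrial calcium uniporter, stood at 52.5 against 29.8 CPM in monocytes (0.84 on the log2 scale, adjusted p = 0.01).

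Interferon-stimulated genes made up 9 members. Type I interferons induce them, and many of their products restrict viruses. Of a list of 24 such genes, 6 were members (*Ifit3*, *Oasl2*, *Mx1*, *Mx2*, *Ifi27l2a*, and *Cmpk2*), and *Oas2*, *Oas1a*, and *Cxcl10* were added after the members were known. Their summed CPM was 321 to 431 in pre-RPMs, 96.1 to 274 in monocytes, and 78.5 to 124 in RPMs labelled IL1RL1-/-, and 294 to 472, 55.1 to 239.6, and 57.2 to 84.9 in WT. The WT values are fixed in part by the rule, and the pre-RPM libraries labelled IL1RL1-/- did not overlap the others. The sum of the whole list did overlap RPMs in both genotypes. It was 1063, 1155, 1189.6, and 1430.2 CPM in WT pre-RPMs and 511, 548, 1214, and 817 CPM in WT RPMs, where mouse 3 was above 3 of the 4 pre-RPM libraries. In libraries labelled IL1RL1-/- it was 1150.4, 1233, 1466, and 1526 CPM in pre-RPMs and 586, 524, 1082, and 1314 CPM in RPMs, where mouse 4 was above 2 of the 4, and monocytes held 511 to 1092 CPM. None of the 9 was called against monocytes, 5 were with the mouse as a block (*Ifit3*, *Oasl2*, *Mx1*, *Oas2*, and *Cxcl10*), and 7 were called against RPMs. Over all genes, the shares called were 0.974%, 1.7%, and 11.5%. *Cxcl10* had 0 to 6 counts per monocyte library and passed the filter against monocytes only through the pre-RPMs, so that it had to differ. All 9 had an unadjusted p under 0.05 against monocytes and a positive fold change (16% of all genes), 7 had an adjusted p under 0.05 (8.24%), and DESeq2 called 2 (0.473%). Over the whole list, edgeR called 0 of 23 tested genes higher than in monocytes, where 18 were higher at an unadjusted p under 0.05 (16% of all genes) and 8 at an adjusted p under 0.05 (8.24%), DESeq2 called 1 (0.473%), and the block 7 (1.7%). Against RPMs, 14 of the 23 were called higher and 2 lower (11.5% and 14.5% of all genes). The median log2 fold change of the list over monocytes was 0.72, and 0.37 with only the monocytes of mice 3 and 4.

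*Oasl2*, a gene of the oligoadenylate synthetase-like family, was near 0 in RPMs. It stood at 40.0, 34.3, 59.5, and 49.8 CPM in pre-RPMs, 4.2, 12.7, 30.3, and 19.7 CPM in monocytes, and 1.5, 2.05, 1.39, and 0.353 CPM in RPMs labelled IL1RL1-/-, where monocytes of mice 1 and 2 were the lowest. Its log2 fold change was 5.16 (SE 0.32, adjusted p = 2.42e-09) over RPMs and 1.46 (SE 0.40, adjusted p = 0.0261) over monocytes (0.00126 as the adjusted p with the block). *Mx1*, a dynamin-like antiviral GTPase gene, had 55, 63.8, 67.8, and 78 CPM in pre-RPMs and 20.1, 19.3, 42.3, and 42.9 CPM in monocytes (adjusted p = 0.0111, or 0.0004 with the block), against 13.1 to 18.7 CPM in RPMs. *Ifi27l2a* had 83.7, 109, 115, and 105 CPM in pre-RPMs, 32.3, 54.8, 68.3, and 73.5 CPM in monocytes, and 20.6, 13.2, 24.9, and 18 CPM in RPMs, and its pre-RPM libraries were above all others. *Oas2* had 39.6, 54.3, 46.8, and 64.7 CPM in pre-RPMs and 6.29, 19.7, 35, and 32.3 CPM in monocytes (adjusted p = 0.0386, or 0.00397 with the block).

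*Ifit3*, *Mx2*, and *Cmpk2* overlapped between pre-RPMs and monocytes. *Ifit3* had 12.5, 10.7, 21.4, and 22 CPM in pre-RPMs, 5.04, 6.33, 11.3, and 10.2 CPM in monocytes, and 6.73, 8.2, 11.4, and 10.9 CPM in RPMs (adjusted p = 0.0496 against monocytes, or 0.00299 with the block), and its near copy *Ifit3b* could share its reads. *Mx2* had 25.7, 38.5, 41.6, and 44.9, 7.97, 17.2, 32, and 26, and 13.5, 18.4, 26.7, and 18.7 CPM in the same order. *Cmpk2*, a mitochondrial nucleotide kinase gene, was even among pre-RPMs (40.7, 36.1, 40.7, and 40.2 CPM), and the monocyte library of mouse 3 reached 38 CPM (adjusted p = 0.126 against monocytes). Not all genes of the list had this pattern. *Rsad2*, which encodes the antiviral protein viperin, was among the 2 called lower in pre-RPMs than in RPMs, together with *Isg20*, an exonuclease gene, and neither is a member.

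The 2 transcription factors among the members were near the minimum level. *Gata1*, the factor of erythroid cells, eosinophils, and mast cells, had 7.03, 4.66, 2.07, and 6.77 CPM in WT pre-RPMs and 1.47, 1.19, 3.94, and 2.17 CPM in those labelled IL1RL1-/-, where RPMs held 2.99, 2.63, 4.5, and 2.12 CPM and monocytes at most 0.703 CPM. It was thus above monocytes in both genotypes, which the rule required of the WT means, and overlapped RPMs in both. In the libraries labelled IL1RL1-/- the RPM mean was the higher. *Gata1* had 4, 4, 9, and 7 counts in those pre-RPMs and 0, 2, 2, and 1 in monocytes, near the level that cannot be told from 0. *Mkx*, the homeobox gene Mohawk, had 6.68, 7.77, 1.73, and 4.38 CPM in WT pre-RPMs and 3.3, 2.98, 2.63, and 6.19 CPM in those labelled IL1RL1-/-, where no monocyte library was above 0.666 CPM and no RPM library above 1.06 CPM. Neither gene had enough counts to be tested.

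Of the 10 members outside protein-coding genes and *Mx2*, 2 were called in both tests (0.486% of all genes tested in both). The RNA *F830208F22Rik* had 4.4, 5.37, 6.56, and 4.95 CPM in pre-RPMs, 0.42, 1.76, 1.33, and 1.76 CPM in monocytes, and 0, 1.46, 3.12, and 0.705 CPM in RPMs labelled IL1RL1-/-, with log2 fold changes of 1.98 (SE 0.38, adjusted p = 0.00456) over monocytes and 2.04 (SE 0.50, adjusted p = 0.00298) over RPMs. It had 1 to 5 counts per monocyte library and passed the filter of both tests only through the pre-RPMs, so that it had to differ. *Gm32633*, another such RNA, had 9.91, 15.5, 8.31, and 12.7 CPM in pre-RPMs, 4.2, 2.46, 5.99, and 5.62 CPM in monocytes, and 5.24, 8.2, 7.28, and 3.53 CPM in RPMs, where the highest RPM library nearly reached the lowest pre-RPM library. Its log2 fold changes were 1.38 (SE 0.28, adjusted p = 0.00701) and 1.04 (SE 0.27, adjusted p = 0.00387). *A530010L16Rik* had 9.17 to 14 CPM in pre-RPMs against 1.26 to 8.08 CPM in monocytes and 2.62 to 4.58 CPM in RPMs (adjusted p = 0.0419 against monocytes, or 0.00923 with the block, and 3.50e-05 against RPMs).

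The members that held the pattern least in libraries labelled IL1RL1-/- were mostly low. *Gm47615*, an unnamed gene model, had 5.14, 9.25, 4.38, and 6.81 CPM in pre-RPMs against 6.29, 6.68, 6.33, and 9.49 CPM in monocytes and 7.11, 5.27, 4.16, and 3.88 CPM in RPMs, and the RNA *Epb41l4aos* had 4.04, 5.37, 2.63, and 3.4, 2.52, 2.11, 4.00, and 5.27, and 3.74, 4.98, 4.5, and 4.23 CPM. In both genes the 3 cell types overlapped, with adjusted p of 0.822 and 0.768 against monocytes. In WT, *Gm47615* had 6.33, 10.9, 5.53, and 11.9 CPM in pre-RPMs and 2.29, 6.62, 0.763, and 4.21 CPM in monocytes, which overlapped as well. *Gata1*, *Trem2*, *Cmpk2*, and *Sntb1*, given above, were also among the 8 members with the lowest ratio. *3110021N24Rik* stood at 5.85 against 4.14 CPM in monocytes (WT, 6.26 against 1.9), and *AC163101.2* at 4.94 against 3.23 CPM (WT, 5.4 against 1.61).

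Between genotypes, the pre-RPM levels are given side by side and nothing is read from them, since the WT values chose the members and *Il1rl1* goes against the label. In edgeR's fit of pre-RPMs, 40 members were lower and 26 higher in libraries labelled IL1RL1-/-. At an adjusted p under 0.05, 0 of 66 were called, where 59 of 10698 genes (0.552%) were, and 9 had an unadjusted p under 0.05 (8.8% of genes). The median ratio over monocytes was 2.38 in WT and 2.13 in libraries labelled IL1RL1-/-, and over RPMs it was 7.16 and 6.84.

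Some members lie close together on GRCm38, with gaps under 500 kb. *Mx1* and *Mx2* are 72401 bases apart on chromosome 16, and *Plac8* and *Hpse* are 107239 bases apart on chromosome 5. *Dnah2* and *Tnfsf13* are 133736 bases apart on chromosome 11, *Oas2* and *Oas1a* 146403 bases apart on chromosome 5, and *Ms4a6d* and *Stx3* 170269 bases apart on chromosome 19. *Ms4a6d* and *Stx3* were both called in both tests, and of *Plac8* and *Hpse* only *Hpse* was.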

How the data were processed

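RNA-seq libraries (24) had been made from 3 sorted populations of the spleen, 1 of each per mouse, with 4 mice per genotype. ATAC-seq samples of the same series were not analysed here. Counts were deposited by the authors as read pairs per gene and library. Libraries had been made with a stranded total RNA kit, trimmed with cutadapt, aligned with STAR 2.5.1, and counted with featureCounts 1.6.2 by strand over exons joined by gene name, with Ensembl release 95 annotation of GRCm38 per the file headers. Pairs that fit several genes are not kept by default in such counting, so near-identical genes can be undercounted.

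From these counts, CPM was computed without *Gm42418* and mitochondrial genes (24.4% to 38.8% and 5.49% to 10.6% of counts), and members were chosen on WT means. The members and all gene lists were chosen with earlier results of these data known. Tests used edgeR 4.0.16 (R 4.3.3; TMM, filterByExpr, quasi-likelihood F test, Benjamini-Hochberg adjustment over all genes tested) in the libraries labelled IL1RL1-/-, with 4 libraries per group. The standard error was derived from the F statistic. Scaling by the rule's library totals in place of TMM moved the median log2 fold change of all genes by −0.04 against monocytes and −0.11 against RPMs. The script was tested on simulated data.

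The genes named were the 12 members highest per kb in WT pre-RPMs, the 12 with the largest WT ratio to the higher of the other means (1 CPM added), the 12 with the largest smaller fold change among those called in both tests, members on a gene list, the 8 with the lowest such ratio in libraries labelled IL1RL1-/-, and those next to a threshold. Members outside this rule (*Tnfsf13*, *Cxcl10*, *Oas1a*, *Dnah2*, and *1600010M07Rik*) were chosen after their values were seen.

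Mouse numbers in the labels pair the cell types of a mouse. Deviations from the group mean correlated between same-numbered pre-RPM and monocyte libraries at r = 0.126, 0.235, 0.166, and 0.306 for mice 1 to 4, and between pre-RPM and RPM libraries at r = 0.105, 0.0943, 0.101, and 0.142, and the own number was highest in all 8 cases. A fit with the mouse as a block was an alternative, with DESeq2 1.42.0, RLE size factors, other count filters, all 24 libraries in a single fit, and each library left out in turn. Within a cell type and genotype each library came from a different mouse, and the number of counts limits the precision of low genes.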

Additional observations from a re-analysis of the deposited data

Results flagged for a closer look

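Among the named members, single libraries stood apart from the other 3 of their group, by a gap to the nearest library above Dixon's 95% critical value for 4 values, in 9 of 232 groups screened. Chance alone gives about 1 group in 20. In WT pre-RPMs, *Apobec1* reached 193.8 CPM in mouse 4. In WT RPMs, *Sirpb1a* stood at 23.9 CPM and *Gm47615* at 8.69 CPM in mouse 1, and *Cmpk2* at 14.5 CPM, *Stx3* at 7.94 CPM, and *Mkx* at 2.07 CPM in mouse 2. In libraries labelled IL1RL1-/-, *B3gnt8* reached 19.6 CPM in the monocytes of mouse 3, *Gm47615* reached 9.49 CPM in the monocytes of mouse 4, and *Cmpk2* was lowest, at 36.1 CPM, in the pre-RPMs of mouse 2.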

How the results depend on the processing

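The 66 genes that met the rule in WT libraries became 39 with library totals over all genes, 139 with TMM-scaled library sizes, 12 at 3 times monocytes and 2 times RPMs, 34 with only the WT monocytes of mice 3 and 4, and 37 to 153 with each library left out. These were not all members. Only 21 of the 34 were, and 30 of the 37 found without the WT monocyte library of mouse 2. The 41 that met the rule in libraries labelled IL1RL1-/- became 8 at 3 times and 2 times, 12 with only the monocytes of mice 3 and 4, and 21 to 48 with each library left out. Of the 9646 genes at the minimum level there, 1.13% met the rule, and 0.384% with only those monocytes. At the ends of the last range the shares were 0.705% and 1.71%. Against monocytes, the 14 called members (0.974% of all genes) became 41 with every gene of at least 1 count, 27 with DESeq2, 36 with the mouse as a block, 48 at an adjusted p under 0.05 with no fold threshold, 3 with only the monocytes of mice 3 and 4, and 3 to 30 with each library left out. In the same order, 0.684%, 0.473%, 1.7%, 8.24%, 0.231%, and 0.289% to 2.28% of all genes were called. Against RPMs, the 53 called (11.5% of all genes) became 17 with at least 10 counts in every library (8.33%), where fewer members could be tested, and 50 to 57 with each library left out (11.2% to 12%). The 12 called in both became 37 with at least 1 count, 5 with at least 10 counts, 25 with DESeq2, 31 with the block, 47 at an adjusted p under 0.05, 3 with only the monocytes of mice 3 and 4, and 3 to 28 with each library left out. Of all genes tested in both, 0.486% were called in the main fits and 0.851% with the block. That share was not counted for the other settings, so their counts of members called in both cannot be set against all genes, and nothing is read from them. Apart from the count filters and the fits with fewer libraries, the cause was not tested. Single genes changed direction near 0. For *Epb41l4aos*, the log2 fold change over monocytes ranged from −0.00072 (without monocyte replicate 2) to 0.44 (without monocyte replicate 4) with each library left out, and was −0.24 with only the monocytes of mice 3 and 4. Over RPMs, *Epb41l4aos* ranged from −0.21 (without pre-RPM replicate 2) to 0.041 (without pre-RPM replicate 3), and was 0.025 without pre-RPM replicate 4. *Gm47615* ranged from −0.31 (without pre-RPM replicate 2) to 0.030 (without monocyte replicate 4) over monocytes, and *Trem2* was at −0.032 with only the monocytes of mice 3 and 4. Over all named members, comparisons, and alternatives, 1008 values kept their direction and side of the threshold, 57 passed it anew, 87 no longer passed it, and 6 changed direction. Where a library holds few counts, a value under 3 counts cannot be told from 0.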

Other observations

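Of the 11 eosinophil and neutrophil genes left out by name, 5 met the same thresholds in WT and again in libraries labelled IL1RL1-/-. In the latter, 1.13% of the 9646 genes at the minimum level met them. The names were set with earlier results of these data known, so nothing is read from this count. *Retnlg*, a resistin-like gene of neutrophils, had means of 149.7 CPM in WT pre-RPMs, 24.4 CPM in monocytes, and 3.32 CPM in RPMs. *Alox15*, the 12/15-lipoxygenase gene, stood at 59.7, 12.7, and 2.20 CPM in the same order. *Il5ra*, *Siglecf*, and *Ear6*, genes of eosinophils, stood at 7.96, 7.83, and 6.73 CPM in WT pre-RPMs, while *Epx*, the eosinophil peroxidase gene, was at 0.893 CPM. *Ccr3* was highest in RPMs, with 502 CPM against 55.4 CPM in pre-RPMs.

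Outside the members, the RPM genes *Spic*, *Hmox1*, and *Axl* were called higher in pre-RPMs than in monocytes labelled IL1RL1-/-, 3 of 6 tested genes of a list of RPM genes, and all 12 genes of that list were called lower than in RPMs. Of all genes, 0.974% were called higher than in monocytes and 3.88% lower, and 14.5% were called lower than in RPMs. Of 12 eicosanoid genes tested, *Cysltr1* and *Ggt5* were called higher than in monocytes, and of 16 protease and matrix genes, *Spon1* was called higher and *Serpinb1a* lower. All 8 NK cell markers were called lower in pre-RPMs than in monocytes, and of 17 neutrophil markers 10 were lower and *Retnlg* higher.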
